A study of Homo sapiens with 2 samples.

Results

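Between the genes of parental TOV21G cells, 1040 regions of intergenic chromatin held more FLAG-SMARCA4 ChIP tags than in a clone that had become resistant to EZH2 inhibition. They were chosen by their measured tags, as rows of the deposited list of regions where the parental library exceeded the library of the clone, and by their place. Each lies on chromosomes 1 to 22 or X except 10, has its nearest edge over 5 kb from the transcription start site (TSS) of any annotated transcript, and has its centre outside the body of every gene of any type. They make up 10.8% of the 9596 parental-higher regions on those chromosomes, and 1040 of 12896 regions in the 2 deposited lists together.

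The data are FLAG-SMARCA4 ChIP-seq, with 1 library of parental TOV21G cells, a line from an ovarian clear cell carcinoma with mutated ARID1A, and 1 library of EIR clone 3. EIR cells are EZH2 inhibitor resistant cells, here selected from TOV21G in GSK126 raised stepwise from 5 to 20 μM and then picked as clones. Both lines carried a FLAG tag on SMARCA4 (also called BRG1) at the endogenous locus, so each condition stands for 1 tagged line and 1 clone. There were no replicates and no input library was used here, so that intervals below cover counting error alone, and a change in the amount of tagged SMARCA4, in its place on the genome or in DNA copy number cannot be told apart. The parental library held about 25640000 tags (aligned reads) and the EIR library about 34980000, and 1 EIR tag counts as 0.733 on the parental scale.

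SMARCA4 is an ATPase subunit of the SWI/SNF chromatin remodelling complexes, which slide and evict nucleosomes with the energy of ATP, and ARID1A is a subunit of one form of that complex. SWI/SNF occupies promoters and also distal enhancers, stretches of DNA far from promoters where transcription factors bind and from which they can raise the transcription of genes on the same chromosome. AP-1 factors, the dimers of FOS and JUN proteins, bind many enhancers in epithelial cells and are known to recruit SWI/SNF there, and TEAD factors, the DNA-binding partners of YAP in the Hippo pathway, often bind beside them.

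The AP-1 site TGACTCA, or its reverse complement TGAGTCA, was found in 174 of the 1040 regions (16.7%, 95% Wilson interval 14.6 to 19.1). The share was near that in the 1628 distal parental-higher regions inside coding genes, 15.7% (14.0 to 17.5). These shares are over whole regions, the members being 500 to 2348 bp long. Among members of exactly 500 bp it was 13.3%, against 7.63% of all intergenic distal windows of 500 bp. The 6 stretches below come from regions among those with the most parental tags that hold the site, and are shown because they place the motif in its sequence context at strongly occupied members. Each gives the match nearest to the centre of its region with 50 bases on either side, from the + strand of GRCh37 (the coordinates of hg19), and capitals mark the AP-1 match.
chr18:46502724-46502830, upstream of SMAD7: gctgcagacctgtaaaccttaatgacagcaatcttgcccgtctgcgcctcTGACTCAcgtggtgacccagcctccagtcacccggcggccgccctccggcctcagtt
chr20:52517028-52517134, downstream of the BCAS1 TSS: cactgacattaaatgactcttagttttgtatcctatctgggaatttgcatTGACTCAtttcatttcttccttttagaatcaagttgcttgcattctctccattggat
chr5:58181284-58181390, downstream of the RAB3C TSS: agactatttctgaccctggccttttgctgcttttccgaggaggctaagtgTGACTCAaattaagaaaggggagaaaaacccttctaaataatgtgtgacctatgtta
chr12:64575308-64575414, downstream of the KICS2 TSS: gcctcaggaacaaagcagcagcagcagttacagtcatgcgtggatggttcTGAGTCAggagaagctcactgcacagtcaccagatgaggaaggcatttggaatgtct
chr18:45549446-45549552, upstream of SMAD2: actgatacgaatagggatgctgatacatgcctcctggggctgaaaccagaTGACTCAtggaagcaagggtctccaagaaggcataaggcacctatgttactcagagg
chr1:41962009-41962115, upstream of EDN2: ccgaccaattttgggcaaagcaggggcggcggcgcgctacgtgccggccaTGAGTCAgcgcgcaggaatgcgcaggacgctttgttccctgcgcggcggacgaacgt

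The stretches differ in base composition. The SMAD7 and EDN2 stretches are rich in G and C. The BCAS1 and RAB3C stretches hold more A and T than G and C. Across the 1040 regions, 7 matches stood within 15 bases of a run typical of the Alu repeat family, and 16.2% of regions held a match without them. The region around the SMAD7 stretch had 110 parental tags against 38.1 scaled EIR tags, that near SMAD2 63 against 24.2, and that near EDN2 60 against 30.1.

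The rule fixed that every region had more parental than EIR signal, so the sizes of the folds are given as a description. Parental tags ran from 15 to 151 with a median of 22, and the EIR library held 0.7 to 75.5 scaled tags in the same regions with a median of 7.30. The fold, parental over scaled EIR tags, had a median of 3.03 (interval of the median 2.96 to 3.07), a lower quartile of 2.63 and an upper quartile of 3.51. A fold of at least 2 was found in 1015 of the regions and a fold of at least 4 in 144. For comparison, the median fold was 3.07 (3.07 to 3.12) in the 1628 distal parental-higher regions inside coding genes and 2.59 (2.55 to 2.61) in the 4851 regions within 1 kb of a TSS. The latter had a median of 46 parental tags, and these folds were not matched for tag number. Members of 40 tags or more had a median fold of 2.35, so a larger loss at the members is not read from these medians.

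The tags of the clone at these sites were set against the genome mean. Each of the 1040 regions had at least 1 EIR tag. With 8.97 tags expected per kb if the parental tags were spread evenly over the sequenced genome, the regions held a median of 4.46 times that mean in the parental library and 1.47 times that mean in the EIR library, on the same scale. The EIR density was at or below the genome mean in 174 regions, 16.7% (14.6 to 19.1), and above it in the others. With a median of 10 EIR tags per region, the excess at the median region alone is not told apart from counting error. Summed over the 1040 regions, the EIR library held 15.9 scaled tags per kb, against the mean of 8.97. With no input library, the source of that excess was not tested, and retained binding was not shown for most of the regions.

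**Figure D1:**
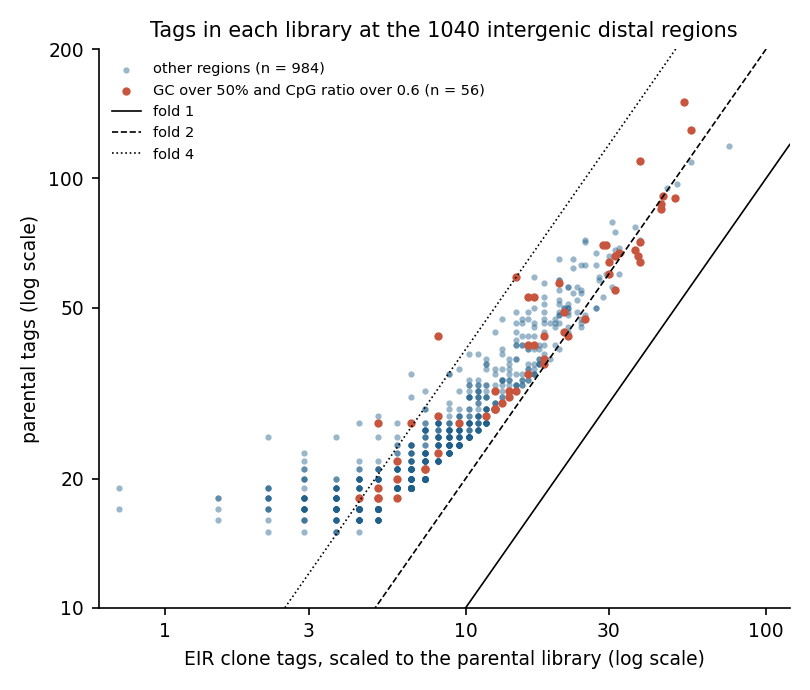
Parental tags (vertical, log scale) against EIR clone tags scaled to the parental library (horizontal, log scale), 1 point per intergenic distal region, with lines at folds of 1, 2 and 4. The 56 regions with GC over 50% and a CpG ratio over 0.6 (red) lie mostly at high tag numbers, with a median of 42 parental tags against 21 in the other 984.

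Weakly and strongly occupied regions differed in fold, in a way the calling threshold shapes: a region of few tags enters the list only with a large fold. The 367 regions of 15 to 19 parental tags had a median fold of 3.51 (3.31 to 3.64), and none was below 2.88. The 134 regions of 40 tags or more had a median fold of 2.35 (2.27 to 2.45), with a lowest fold of 1.58. Their median length was 948 bp, against the shortest length called, 500 bp, which 738 of the 1040 regions had.

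The most heavily tagged region was a CpG-rich site on chromosome 15, chr15:67134329-67135611, 130.3 kb downstream of the TSS of SMAD6, an inhibitory SMAD of BMP signalling. It had 151 parental tags and 53.5 scaled EIR tags (fold 2.82, exact Clopper-Pearson interval 2.12 to 3.78). Next came chr9:132174865-132176331, 194.8 kb upstream of NTMT1, which encodes an N-terminal methyltransferase, with 130 parental and 56.4 scaled EIR tags (fold 2.30, 1.72 to 3.09). The region chr18:46502087-46503139, 24.8 kb upstream of SMAD7, the inhibitory SMAD of TGF-beta signalling, had 110 against 38.1 (fold 2.89, 2.06 to 4.09). The gene-free intervals around the SMAD6 and SMAD7 sites were 49.7 and 49.2 kb long, and neither is bordered by a gene annotated as coding.

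The other regions among the 10 with the most tags had lower folds. At chr6:166419239-166420851, 17.6 kb upstream of PDE10A, a cyclic nucleotide phosphodiesterase gene, the counts were 119 and 75.5 (fold 1.58, 1.20 to 2.07), which is the lowest fold of all 1040 regions. At chr11:67329394-67331076, 20.1 kb upstream of GSTP1, a glutathione transferase gene, they were 95 and 46.9 (fold 2.02, 1.46 to 2.83). At chr2:232545760-232546566, 25.04 kb upstream of PTMA, which encodes prothymosin alpha, they were 91 and 45.4 (fold 2.0, 1.43 to 2.81). The remaining 4 lay nearest to YWHAZ, RIPK2, NTMT1 and H3-3A and had folds between 1.81 and 1.95. The interval of the PDE10A site lies below that of the SMAD6 site and meets that of the SMAD7 site only between 2.06 and 2.07. The intervals of the other sites overlap both, which does not show that the folds are equal. Their differences in fold were not resolved with 1 library per condition.

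The largest folds came from sites where the clone had 1 or 2 tags. At chr6:7255766-7256266, 33.8 kb from the TSS of SSR1, a subunit of the translocon-associated complex, the parental library had 19 tags and the clone 1 (fold 25.9, with an interval of 4.12 to 1077). At chr1:117787897-117788397, 34.3 kb upstream of VTCN1, the gene of the B7-H4 checkpoint ligand found on gynaecological carcinomas, the counts were 17 and 1 (fold 23.2, 3.63 to 969). Regions nearest to CITED4, TOMM7 and TEX48 had 17 or 18 parental tags, 2 EIR tags each and folds of 11.6 to 12.3. With so few tags the order of these folds is not resolved, since the lower bounds of all 5 lie between 2.75 and 4.12.

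Some regions lay very far from any gene. The farthest, chr6:91652774-91653274, was 356 kb from the nearest TSS, that of MAP3K7, the gene of the TAK1 kinase, and had 17 parental and 4.40 scaled EIR tags. A neighbour, chr6:91650856-91651356, had 26 and 7.30, and another site in the same 803 kb gene-free interval, chr6:91807979-91808479, had 16 and 2.9. The next ones were chr1:191488110-191488890, 290.5 kb from a TSS, with 27 against 5.10, and chr2:36254984-36255484, 271 kb from a TSS and 327 kb upstream of CRIM1, with 19 against 4.40. All 5 had folds of 3.55 to 5.46 with lower bounds above 1.45.

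Near the 5 kb limit the values did not stand apart. The 3 members just inside it, at 5018, 5035 and 5046 bp from a TSS, had 19, 17 and 24 parental tags and folds of 8.64, 3.31 and 3.27. The 3 intergenic regions just outside it, at 4992, 4986 and 4979 bp, had 26, 18 and 20 tags and folds of 3.55, 3.07 and 3.41. The median member was 17.8 kb from a TSS of any kind and 42.0 kb from that of a coding gene, up to 1258 kb. The nearest TSS was that of a long noncoding RNA for 366 regions, of a coding gene for 327, of a pseudogene for 200, of a miRNA for 50 and of another gene type for 97. The region lay on the upstream side of its nearest coding TSS in 593 cases (57.0%, 54.0 to 60.0). The rule leaves out gene bodies, which lie downstream of a TSS. The share over the whole territory was not computed, so no preference for a side is read from this.

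The regions crowded toward genes even within the intergenic territory. There were 2.10 per Mb of available sequence at 5 to 10 kb from a TSS, 1.70 at 10 to 25 kb, 1.14 at 25 to 50 kb, 0.653 at 50 to 100 kb and 0.245 beyond 100 kb. The 414 EIR-higher regions of the same territory went from 0.738 to 0.164 per Mb over the same classes. From the nearest to the farthest class the median fold was 2.96 (2.86 to 3.07), 3.00 (2.88 to 3.07), 3.07 (2.89 to 3.14), 3.07 (2.88 to 3.31) and 3.12 (2.88 to 3.96). The intervals overlap, so a trend with distance was not resolved.

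**Figure D2:**
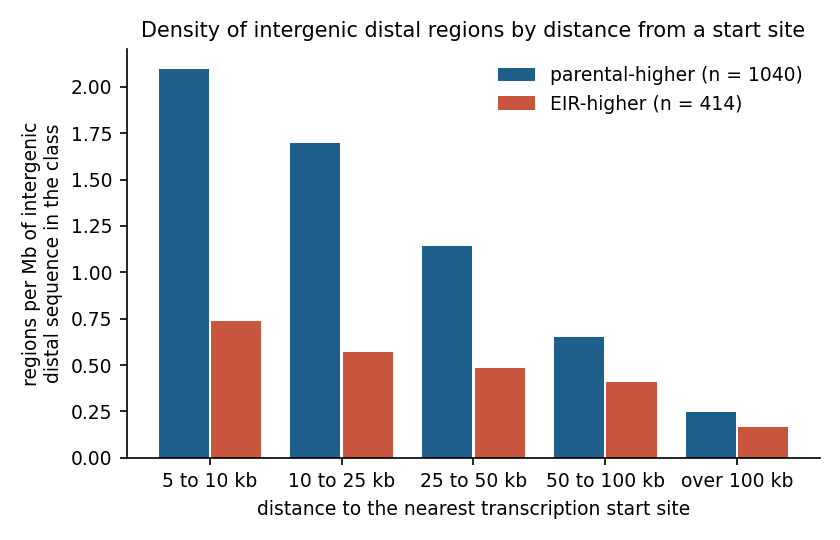
Regions per Mb of intergenic distal sequence (vertical, bars) in 5 classes of distance to the nearest TSS (horizontal), for the 1040 parental-higher and the 414 EIR-higher regions. The parental-higher density goes from 2.10 per Mb in the nearest class to 0.245 in the farthest.

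Over the whole territory of 859 Mb, 31.8% of the sequenced bases, there were 1.21 members per Mb, against 2.05 parental-higher regions per Mb of distal sequence inside coding genes. Members outnumbered EIR-higher intergenic regions 2.51 to 1, while distal parental-higher regions in coding genes outnumbered the EIR-higher ones there 5.20 to 1. The chromosomes ranged from 0.516 members per Mb on chromosome 21 (6 regions) to 3.44 on chromosome 22 (24 regions). The median fold stayed between 2.78 and 3.31 on every chromosome. Chromosome 21 also held 34 EIR-higher intergenic regions, and 61 of the 414 EIR-higher intergenic regions lay beside a large assembly gap (1 Mb or longer, at most 1 Mb away), against 10 of the 1040 members.

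Neighbouring members formed groups. Joined at 12500 bp or less, 657 stood alone, 103 pairs formed, and 177 (17.0%, 14.9 to 19.4) fell into 51 groups of 3 or more, a share near that of distal regions in coding genes, 18.5% (16.7 to 20.4). The grouped members had a median of 25 parental tags against 21 for the lone ones. Summed over each group, folds ran from 2.23 to 3.90 with a median of 2.80, which are sums over regions selected for lower EIR signal.

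The largest group held 7 regions over 20.7 kb, chr15:96955766-96976515, starting 79.4 kb downstream of the TSS of NR2F2, the gene of the orphan nuclear receptor COUP-TFII. From the first to the last, the parental tags were 37, 39, 71, 24, 27, 22 and 38. The scaled EIR tags were 16.1, 13.2, 38.1, 9.5, 8.8, 8.1 and 14.7. Every region of the group had lower EIR signal, as its selection requires. The strongest one, which is also CpG-rich, had the smallest fold, 1.86 (1.28 to 2.72). Its interval overlaps those of the other regions of the group. The sums were 258 parental and 108.5 scaled EIR tags (fold 2.38, 1.94 to 2.93).

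Groups of 5 lay upstream of CHRNB3, a nicotinic receptor subunit gene, with 247 against 110.7 summed tags (fold 2.23, 1.82 to 2.75), and upstream of PTMA, with 245 against 102.5 (fold 2.39, 1.93 to 2.96). Others lay beside PSMA6, a proteasome subunit gene (fold 2.72, 2.07 to 3.57), and EPHA2, an ephrin receptor gene (fold 2.34, 1.81 to 3.03). Chromosome 20 had a pair of such groups, near BCAS1 (fold 2.93, 2.21 to 3.91) and ZFP64 (fold 3.41, 2.36 to 5.00). Their intervals overlapped, so the groups could not be ranked by fold.

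The nearest coding gene of each region gives its neighbourhood, with no statement on which gene it acts on. There were 659 such genes, 3.41% of the 19348 coding genes on these chromosomes. Of these, 471 had 1 region and 188 had more, and the 28 genes with 5 or more accounted for 16.6% of all members. FAT1, the gene of an atypical cadherin that restrains growth, led with 13 regions, followed by NR2F2 with 12 and BCOR, the gene of a Polycomb-associated corepressor, with 10. The next were BCAS1, MTCL1, MED13L and NUAK1 with 7 each, and NTMT1, ZFP64 and TTC32 with 6.

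All 13 FAT1 regions lay upstream of the gene, 8.93 to 457 kb from its TSS. Parental tags ran from 17 to 49 and scaled EIR tags from 5.10 to 20.5, with folds of 2.23 to 3.58. The sum was 360 against 129.8 (fold 2.77, 2.31 to 3.34). The 10 BCOR regions lay on the other side, 102.6 to 614 kb downstream of its TSS and beyond the end of the gene, with 260 against 101.2 summed tags (fold 2.57, 2.08 to 3.18). The strongest of them, chrX:39547631-39548263, with 64 against 38.1, had the smallest fold, 1.68 (1.15 to 2.47). Its interval overlaps those of the other BCOR regions. The 12 NR2F2 regions, the group of 7 included, reached 346 kb downstream and summed to 394 against 156.8 (fold 2.51, 2.12 to 2.98).

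Among the other leading genes the summed parental tags ranged from 137 at NUAK1 to 380 at NTMT1, against 360 at FAT1, 394 at NR2F2 and 260 at BCOR. At MED13L, a Mediator subunit gene, all 7 regions lay upstream with 17 to 23 parental tags each and a summed fold of 3.36 (2.45 to 4.64). At NUAK1, an AMPK-related kinase gene, 2 lay upstream and 5 downstream (fold 3.12, 2.28 to 4.29). At MTCL1, which encodes a microtubule crosslinking protein, 7 lay downstream (fold 2.83, 2.20 to 3.67). These intervals overlap those of FAT1, NR2F2 and BCOR.

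**Figure D3:**
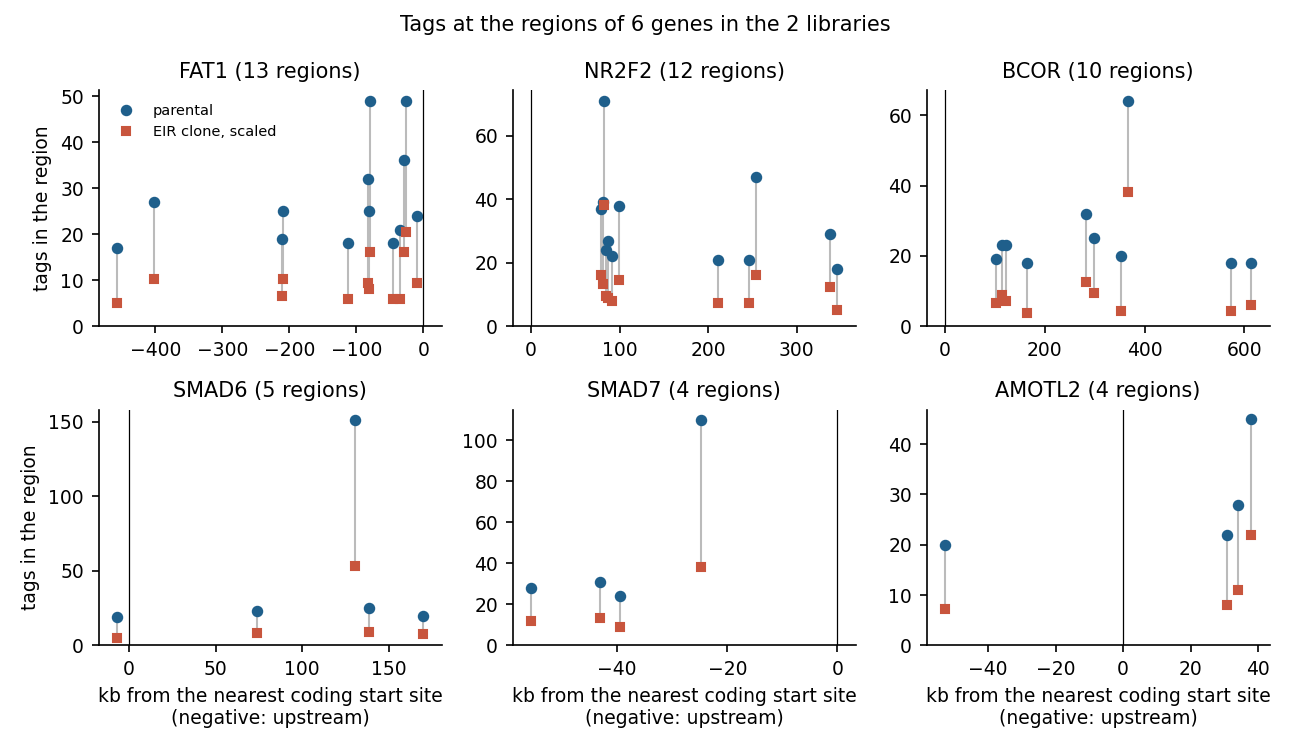
Tags per region (vertical) in the parental library (blue circles) and the EIR clone scaled to it (red squares) against the distance in kb from the nearest coding TSS (horizontal, negative values upstream) at the regions nearest to FAT1, NR2F2, BCOR, SMAD6, SMAD7 and AMOTL2. Every region sits lower in the clone, as its selection requires, and the site 130.3 kb downstream of SMAD6 is the tallest at 151 tags.

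Genes with a member nearby often had a parental-higher region at their own promoter. Of all 19348 coding genes, 22.8% had one within 1 kb of a TSS, whereas 309 of the 659 genes nearest to a member did (46.9%, 43.1 to 50.7), and 18 of the 28 genes with 5 or more members (64.3%, 45.8 to 79.3). An EIR-higher promoter region was found at 10 of the 659 (1.52%, 0.826 to 2.77), against 1.87% of all coding genes. Of the 10 leading genes, 7 had the parental-higher promoter region. At NUAK1 it had 217 parental tags and a fold of 2.03, at MTCL1 130 tags and a fold of 3.62, and at MED13L 106 tags and a fold of 3.91. Expression was not analysed here, and its part in this sharing was not tested.

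The sizes of the promoter and member folds showed little relation. Across the 309 genes with both, the median fold was 2.42 (2.33 to 2.54) at the promoter and 3.03 (2.97 to 3.07) at the members, and Pearson's r of the log2 folds was 0.035. The genes share the same pair of libraries and are not independent replicates. Both folds come only from regions called parental-higher, and the 2 medians were not matched for tag number. Over all members the medians were 22 parental and 10 EIR tags, so counting error in the folds is large. So low an r therefore cannot decide whether the underlying folds are related.

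Gene groups of the cell line and its signalling pathways were read against the 3.41% of all coding genes. In the TGF-beta and BMP list, which covers ligands, receptors, SMADs and their ID target genes, 7 of 20 genes had a member nearest, with 19 regions, a median fold of 2.84 and a range of 2.08 to 4.91. That was 7.24 regions per Mb of the intergenic territory nearest to those genes, against 1.19 per Mb over all coding genes. Other lists read below had 6.94 per Mb (inflammatory genes), 4.62 (AP-1 factors, on 1 region), 4.15 (integrins and matrix), 3.63 (receptor kinases) and 3.47 (Hippo). The SWI/SNF list had 2.36 and the neuronal list 1.49, and the BCL2, lymphoid and hepatocyte lists held no region. A density above 1.19 was thus not particular to the TGF-beta and BMP list. In this list 16 of 20 genes (80%) also had a parental-higher promoter region, against 22.8% of all coding genes. That was not particular to this list either. The share was 63.6% for Hippo, 58.3% for receptor kinases, 56.2% for BCL2, 54.2% for SWI/SNF and 53.8% for AP-1 factors. It was 35% for inflammatory genes, 25.8% for integrins and matrix, 14.3% for neuronal genes and 0% for the lymphoid and hepatocyte lists.

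By role, the genes of this list with a member nearest included a receptor, SMADs and ID genes. TGFBR2, the type II receptor gene, had 2 regions upstream, with 20 and 18 parental against 5.90 and 3.70 scaled EIR tags. SMAD2, a receptor-activated SMAD, had 5 regions summing to 209 against 80.7 (fold 2.59, 2.05 to 3.30), and SMAD6 had 5 summing to 238 against 82.8 (fold 2.87, 2.29 to 3.63). SMAD7 had 4, all within 55.6 kb upstream, with 110, 24, 31 and 28 parental tags against 38.1, 8.80, 13.2 and 11.7 (summed fold 2.69, 2.10 to 3.46). The promoter regions had 201 parental against 88 scaled EIR tags at SMAD6 and 79 against 23.5 at SMAD7. ID1, ID2 and ID3, which encode inhibitors of DNA binding induced by BMP, had 1 region each, with folds of 3.70, 2.64 and 3.75.

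Receptor tyrosine kinases and their ligands had members at 6 of 24 genes. EPHA2 had 3 regions upstream, with 20, 19 and 39 parental tags against 7.30, 6.60 and 18.3, PDGFC had 2, and EGFR, IGF1R, HBEGF and FGF2 had 1 each, with folds between 2.32 and 3.31. Integrins and extracellular matrix genes had members at 7 of 31, among them ITGAV, the integrin alpha V gene, with 30 and 32 parental tags and folds of 2.41 and 2.91. Both ITGAV regions held TGACTCA. ITGB3, ITGB6, LAMB1, LAMC1 and THBS1 had 1 each, with folds of 3.0 to 4.09.

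The Hippo list had members at 4 of 22 genes. AMOTL2, which encodes a YAP-binding angiomotin, had 4, with 45, 28, 22 and 20 parental tags against 22, 11, 8.1 and 7.3 (summed fold 2.38, 1.74 to 3.27). CCN1, a matricellular YAP target, SAV1, a Hippo scaffold, and CRIM1 had 1 each, with folds of 2.73, 3.96 and 4.32. Of the 13 AP-1 factor genes, FOSL2 alone had a member nearest, with 18 against 3.70 tags. Of the 20 inflammatory genes, 4 had one, including 2 regions beside IL1B, the interleukin-1 beta gene, with 56 and 27 against 22 and 9.5.

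Among the 24 SWI/SNF subunit genes, 3 had members. A region 13.1 kb upstream of SMARCA4 itself, chr19:11058058-11058558, had 29 parental and 10.3 scaled EIR tags (fold 2.83, exact interval 1.45 to 5.79), and the promoter region of SMARCA4 had 83 and 27.1. ARID1B, the paralog of ARID1A, had 2 regions upstream with 43 and 41 against 22 and 17.6, and BCL7C had 1. No region was nearest to any of the 16 BCL2 family genes on these chromosomes. With 0.488 Mb of territory nearest to them, under 1 region would stand there at 1.19 per Mb, so the count does not set the list apart. A parental-higher promoter region was found at 9 of the 16 (56.2%), against 22.8% of all coding genes.

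Among the lists of cell types not cultured here, 2 of the 14 neuronal genes had a member nearest (14.3%, above the 3.41% of all coding genes), NEUROD1 with 25 against 10.3 tags and GRIN1 with 68 against 36.7. With 1.34 Mb of territory nearest to them, the neuronal genes had 1.49 regions per Mb, near the 1.19 over all coding genes. The count thus does not set that list apart. None of the 16 lymphoid and none of the 13 hepatocyte genes had a member nearest, but only 0.355 and 0.234 Mb of the territory lies nearest to them, in which under 1 region would stand at 1.19 per Mb. In all 12 lists, 36 of the 234 genes on these chromosomes had one, 15.4%. The lists differ in how much intergenic sequence lies next to their genes, from 0.216 Mb for the AP-1 factors to 2.62 Mb for TGF-beta and BMP, and a gene with more such sequence can hold more regions.

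The sequence of the regions, which the rule did not use, was compared with all 1705565 windows of 500 bp that tile the intergenic distal territory and with windows 2 kb to either side of each region. Matches were counted on both strands. TGACTCA was present in 98 of the 738 members of exactly 500 bp (13.3%, Wilson interval 11.0 to 15.9), in 8.74% (7.40 to 10.3) of the 1476 windows to either side, and in 7.63% of all windows. Leaving out matches beside the Alu run gave 12.9, 8.4 and 7.42%. The intervals of the members and of their own surroundings did not overlap.

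A difference in share was also seen at like base composition. The members had a median GC content of 45.3% (44.7 to 45.7), their surroundings 44.3% and all windows 38.9%. Among members with 40 to 50% GC, 14.0% (10.9 to 17.8, n = 387) held TGACTCA, against 9.25% of the 599110 windows of that GC content. The distal regions in coding genes had 12.8% (11.0 to 14.8) and the EIR-higher intergenic regions 11.7% (8.64 to 15.6), with intervals that overlap that of the members, so that no difference between these classes was resolved.

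**Figure D4:**
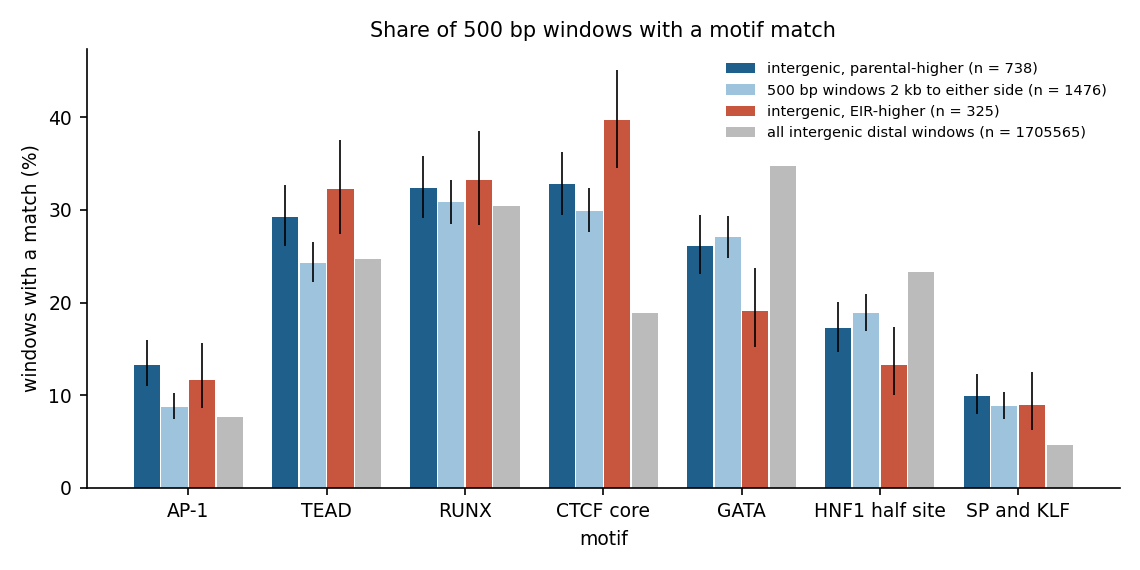
Percent of 500 bp windows with a match (vertical; bars, with 95% Wilson intervals where drawn) for 7 motifs (horizontal) in the members of 500 bp, the windows 2 kb to either side, the EIR-higher intergenic regions of 500 bp and all intergenic distal windows. For AP-1 the members stand at 13.3% and their surroundings at 8.74%, while for RUNX the 4 bars lie between 30.5 and 33.2%.

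The matches gathered near the regions but not at their exact centre. TGACTCA occurred 0.304 times per kb within 500 bp of the centre and 0.203 times per kb from 1.3 to 2.9 kb away, a ratio of 1.50. The 200 bp bin at the centre had 46 matches, close to the outer bins, and the bins to its left and right had 69 and 93. For GGAATG, the TEAD site, the ratio was 1.25 (0.717 against 0.574 per kb), and for TGTGGT, the RUNX site, it was 0.97. In distal regions of coding genes the ratios were 1.45 for AP-1 and 1.07 for TEAD. In the EIR-higher intergenic regions they were 1.61 and 1.11, so the gathering of AP-1 matches was not particular to the parental-higher regions. GGAATG occurred 6.70 times per kb near the centres of those EIR-higher regions and 6.06 times per kb farther out. These densities are far above those of the members, and repeats were not annotated, so the TEAD ratios of the 2 sets are not like for like.

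**Figure D5:**
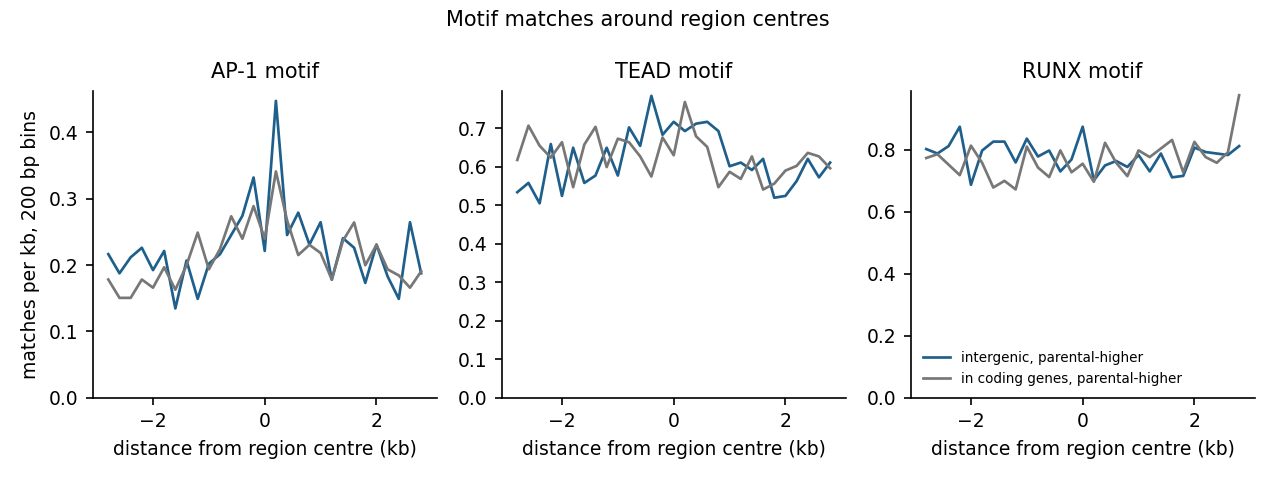
Matches per kb (vertical, 200 bp bins) against the distance in kb from the region centre (horizontal) for the AP-1, TEAD and RUNX motifs, at the 1040 intergenic members (blue) and the 1628 distal parental-higher regions in coding genes (grey). The AP-1 line rises within about 500 bp of the centre, to 0.304 per kb on average at the members, and the RUNX line stays flat.

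The TEAD site was in 29.3% (26.1 to 32.7) of the members of 500 bp, 24.3% (22.2 to 26.6) of the windows to either side and 24.7% of all windows, and 69 of the 1040 regions held both the AP-1 and the TEAD site. Other motifs followed their surroundings. The RUNX site was in 32.4% of members and 30.8% of the windows beside them, the CTCF core AGGNGGC in 32.8 and 29.9%, and the GC box GGGCGG of SP and KLF factors in 9.89 and 8.81%. The GATA site AGATAA was in 26.2 and 27.0%, and the HNF1 core GTTAAT in 17.2 and 18.8%. The FOX site TGTTTAC was in 7.86 and 6.5%, the CEBP site TTGCNNAA in 25.5 and 23%, and the NFY box CCAAT in 50 and 51.0%. The ETS site CCGGAAG was in 1.76 and 1.63%, the E-box CACGTG in 5.42 and 5.15%, and the CRE TGACGTCA in 0.407 and 0.136%. For all 12 motifs other than AP-1, TEAD included, the intervals of members and surroundings overlapped. This held even where both stood away from the value over all windows, as for the CTCF core at 18.9%. The TEAD intervals met only between 26.1 and 26.6%, and an overlap does not show that shares are equal.

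Classes of parental tags, which also differed in fold and length, resolved no relation of occupancy to the AP-1 site. Within 500 bp centred on the region it was in 10.1% (7.40 to 13.6) of members with 15 to 19 tags, 15.3% (11.5 to 20.1) of those with 20 to 24, 15.5% (11.7 to 20.3) of those with 25 to 39 and 17.2% (11.7 to 24.4) of those with 40 or more, with overlapping intervals. Among members of 500 bp the median fold was 3.00 (2.86 to 3.18) with the site and 3.07 (3.07 to 3.18) without it.

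A small subset looked like CpG islands, the CpG-dense stretches that usually mark promoters. With GC over 50% and an observed over expected CpG ratio over 0.6, 56 members (5.38%, 4.17 to 6.93) qualified, against 2.70% (2.02 to 3.61) of distal regions in coding genes and 1.69% (0.821 to 3.45) of EIR-higher intergenic regions. Among the 134 members with 40 tags or more, 30 were of this kind (22.4%, 16.2 to 30.2), against 26 of the other 906 (2.87%, 1.97 to 4.17). The tags of the subset ran from 18 to 151. In distal regions of coding genes, 25 of the 162 with 40 tags or more were of this kind (15.4%, 10.7 to 21.8), an overlapping interval. The SMAD6, SMAD7 and PTMA sites and both NTMT1 sites named above belong to it, as does the strongest region of the NR2F2 group. The median fold was 2.34 (2.23 to 2.78) in this subset and 3.03 (3.00 to 3.07) in the rest. Their median of 42 parental tags stands beside that lower fold, and its part in it was not tested.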

How the data were processed

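FLAG-SMARCA4 ChIP-seq libraries of parental TOV21G cells and EIR clone 3, 1 each, were grouped by their sample labels. Per the Methods and the submitters' processing notes, the authors aligned reads with Bowtie 0.12.9 to hg19 and called regions with HOMER in histone style, each library against the other. The deposited tag count of the parental library is raw, and the EIR signal is scaled by the authors to the parental total, with 0.5 of a tag where a control had none. The deposited fold is the ratio of those values, and the deposited p-value is HOMER's Poisson value, at most 9.87e-05 in these regions. Regions alike in both libraries were not analysed here.

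Distances run between a region's nearer edge and each TSS of GENCODE release 44 mapped to GRCh37, and gene bodies of every type were used. Scaled EIR values of at least 5 were whole multiples of 0.733 (145 distinct values, within 0.06), which gave whole EIR tags and the library total. Folds have exact Clopper-Pearson intervals from the whole tags, shares Wilson intervals and medians order-statistic intervals, all at 95%. PCR copies are not independent molecules, so they cover counting error only, and intervals of shares and medians treat regions as independent draws. No test was made between the libraries, because their difference chose the regions. The territory is all sequence over 5 kb from a TSS and outside genes. Repeats were not annotated. The members and lists were chosen with earlier results of these data known. The named regions are the 10 with most tags, the 5 with the largest folds, the 5 farthest from a TSS, those nearest to the 5 kb limit, the largest groups, the 10 coding genes nearest to most members, and list genes; single-region list genes were also given. Some genes and sequences that these rules select are not reported here. Functions were tested on simulated data. Software was pysam 0.24.0, scipy 1.17.1, matplotlib 3.10.9, pandas 2.3.3 and numpy 2.4.6 under Python 3.11.15.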

Additional observations from a re-analysis of the deposited data

How the results depend on the processing

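No paired analysis was possible because each condition had 1 library, and for the same reason no replicate could be left out. The number of regions was 139 beyond 50 kb from a TSS, 2200 with coding genes and their TSSs alone, 144 at a fold of at least 4, 340 at a HOMER p of at most 1e-06, and 180 with EIR tags scaled 1.5 times higher at a Poisson p of at most 1e-04. The other 6 alternatives gave 770 to 1038. The median fold was 2.86 with a pseudocount of 1 tag, 2.02 with EIR tags scaled 1.5 times higher, 4.91 at a fold of at least 4, 3.55 at the stricter p and 4.64 after the higher scaling with its p. The share with TGACTCA was 13.8% in 500 bp and 3.94% in 200 bp at the centre, 13.3% in members of 500 bp, 20.1% beyond 50 kb, 10.4% at a fold of at least 4 and 13.9% after the higher scaling with its p. It was 16.2% without matches beside the Alu run, an alternative chosen after seeing the data. Median GC content was 44.6% beyond 10 kb, 42.1% beyond 50 kb, 43.5% at a fold of at least 4, 44.2% at the stricter p and 43.5% after the higher scaling with its p. The nearest coding genes numbered 1145 when both flanking genes were counted, and groups of 3 or more numbered 24 when joined at 5 kb. Shorter windows, fewer regions and a rule that a region of few tags needs a large fold are built into these alternatives; no alternative could add regions that were not called. The weakest member had 15 parental tags, and weaker losses were not detectable at this depth.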
